A study of Mus musculus with 30 samples.

Results

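The genes described here mark neurons that have left the cell cycle, and comprise 10 genes of the neuronal cytoskeleton and of neuronal RNA binding. They are *Tubb3*, *Dcx*, *Map2*, *Mapt*, *Stmn2*, *Stmn3*, *Elavl2*, *Elavl3*, *Elavl4* and *Rbfox3*. Their rows were taken from the count table by gene symbol, and all 10 were found among the 25400 genes of the count table and among the 16582 genes that had enough reads to be tested. RNA was taken from neural progenitor cells (NPCs) at day 8 of differentiation from mouse embryonic stem cells (ESCs, line HA36CB1, 129×C57BL/6), in 24 poly(A) RNA-seq libraries with 3 from each of 8 lines. The study asked which MBD2 and MBD3 proteins allow ESCs without MBD3 to enter the neuronal lineage. MBD2 and MBD3 are alternative members of the NuRD chromatin complex.

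The lines were WT, Mbd3-KO without a construct (*Mbd3* KO), and 6 lines that carried the same *Mbd3* knockout together with a construct. The constructs were Mbd3a (MBD3a), Mbd3a without its methyl-CpG binding domain (MBD3dMBD), Mbd2a (MBD2a), Mbd2a without the glycine-arginine stretch (MBD2a-GR), Mbd2a with the point mutation R181C in its methyl-CpG binding domain (MBD2aR181C) and the truncated isoform Mbd2t (MBD2t). The labels give this mutation as R181C, the text of the study as R191C and the columns of the count table as R64C, and the only such line was taken to be the same in all of them. Every construct was driven by the CAG promoter from a recombination site, in cells that retain their own *Mbd2* gene. Individually derived clones were used for each line except MBD2t, whose 3 libraries are repeats of a single clone. The spread within MBD2t therefore leaves out differences between clones.

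After its last division a young neuron rebuilds its microtubules for the outgrowth of axon and dendrites. Tubulins and microtubule-associated proteins assemble and stabilise them, and stathmins release tubulin from their ends. At the same time RNA-binding proteins of the Elavl and Rbfox families set the stability and the splicing of neuronal transcripts. Genes of both kinds are silent or low in ESCs and rise as progenitors become neurons. Their level in an NPC culture therefore depends in part on how many of its cells have begun this step. In bulk RNA, fewer neurons, less of a transcript in each neuron and low expression in other cells cannot be told apart.

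Library totals lay between 27993858 and 49392806 counts, so that 3 counts amounted to at most 0.107 CPM (reads scaled to a common library size, with TMM factors), counting error only. No member was at or under 3 counts in any line. The knocked-out gene *Mbd3* had 155, 149 and 157 CPM in WT and 34.2, 73.8 and 69.1 CPM in *Mbd3* KO, so the transcript was lower but still counted. Its level was 168 to 198 CPM in MBD3a and 423 to 496 CPM in MBD3dMBD. Reads on *Mbd2* lay between 253 and 700.2 CPM in MBD2a-GR, MBD2aR181C and MBD2t, against 64.3 to 70.9 CPM in *Mbd3* KO. In the libraries labelled MBD2a they were 87.2, 86.3 and 67.0 CPM, which overlapped with *Mbd3* KO (0.26 ± 0.21 SE on the log2 scale, adjusted p = 0.508, edgeR's quasi-likelihood test). The counts therefore hold no sign of the construct by which the libraries labelled MBD2a could be checked. By immunoblot of ESC lines, the study reports MBD2a protein at levels similar to those of MBD3 and MBD2b. Its clones were checked for integration by PCR and immunoblotting. Within lines, library s03 of WT, s04 of *Mbd3* KO, s10 of MBD3dMBD, s15 of MBD2a, s18 of MBD2a-GR and s20 of MBD2aR181C stood low for all or nearly all members. Calls that changed without one of them are given below.

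In WT the order of the members was set by *Tubb3*, the neuronal beta-tubulin. Per kilobase of exon, *Tubb3* reached 467 ± 153 CPM per kb (SD, n = 3), and its 3 libraries lay above those of the next gene, *Stmn2*, at 80.4 ± 26.8 CPM per kb. *Stmn3*, *Elavl3*, *Map2*, *Dcx*, *Elavl4*, *Elavl2* and *Mapt* followed, from 67.7 down to 9.68 CPM per kb. *Rbfox3*, the gene of the nuclear antigen NeuN, was lowest at 3.90 ± 1.87 CPM per kb. Apart from *Tubb3* and *Stmn2*, no neighbours in this order were separated in their libraries.

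Loss of *Mbd3* lowered all 10 genes. Each was called lower in *Mbd3* KO than in WT, meaning that its Benjamini-Hochberg adjusted p was under 0.05 and its fold change exceeded 1 on the log2 scale in either direction, by edgeR's quasi-likelihood test over all genes. Of all genes tested, 33.8% were called in this comparison and 14.2% were called lower. The members' median log2 fold change was -4.26, against -0.03 over all genes, and their mean level in *Mbd3* KO was between 1.79% and 37.5% of the WT mean, with a median of 5.20%. The libraries of the lines did not overlap for 9 of 10 members (62.2% of all genes), *Rbfox3* being the exception.

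**Figure D1:**
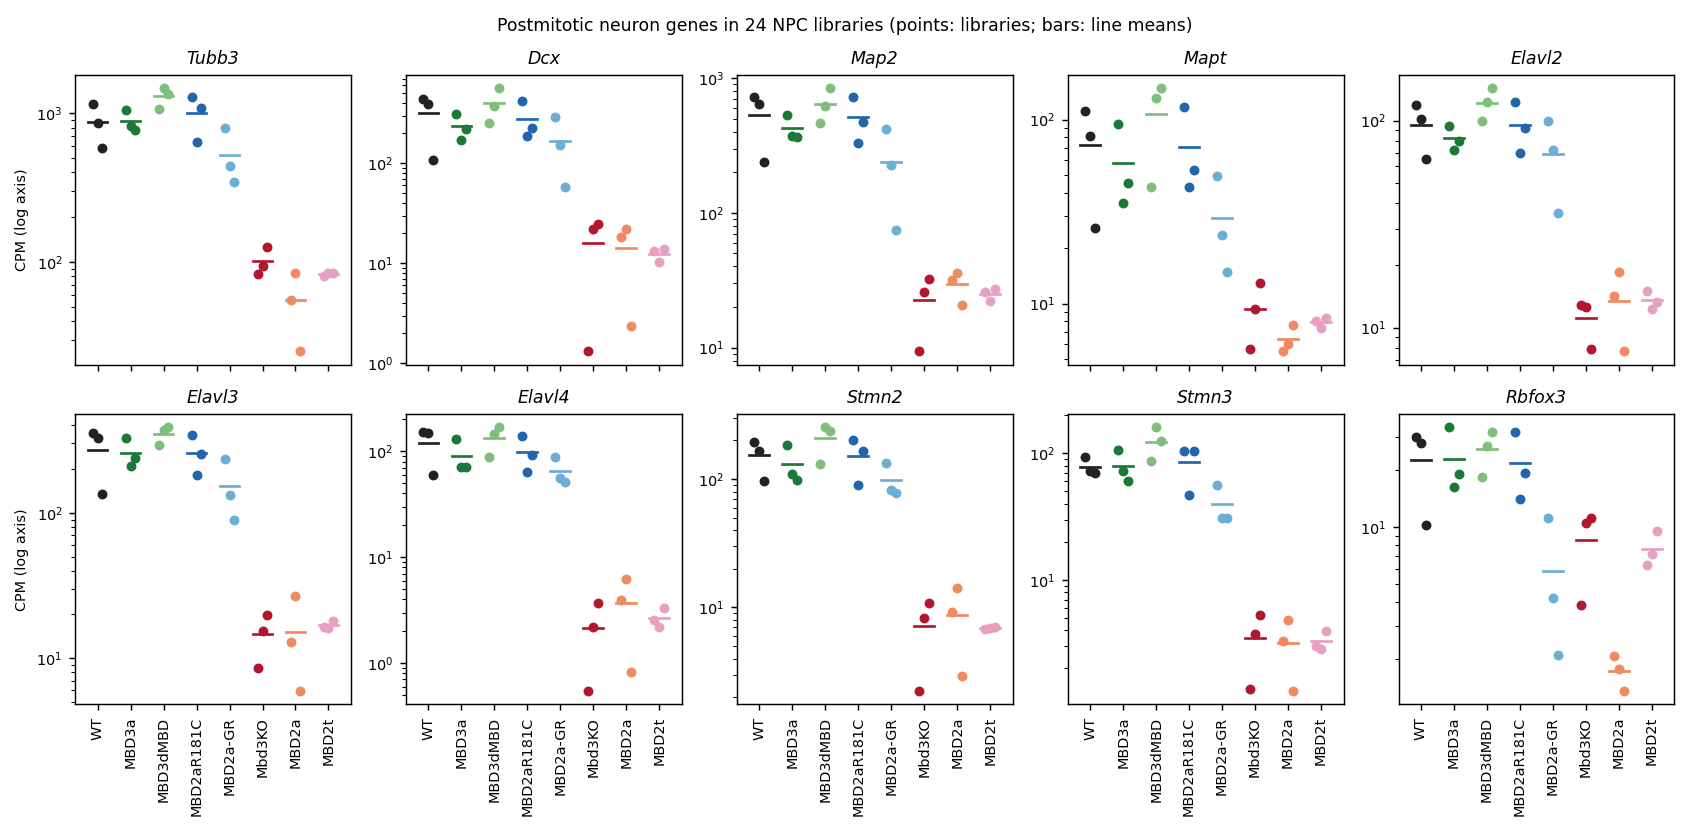
Level of each of the 10 neuron genes in CPM (log axis) in each of the 24 libraries, grouped by line, with points for libraries and bars for the mean of a line. For 9 genes the libraries of Mbd3 KO, MBD2a and MBD2t all sit below those of the other 5 lines, whereas for Rbfox3 the Mbd3 KO libraries reach 11.2 CPM and overlap with WT.

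Among the genes of the microtubule lattice and its associated proteins, *Tubb3* (chromosome 8, 125935324 to 125945915 of NCBIM37, plus strand) reached 1161, 866 and 588 CPM in WT but 83.6, 94.0 and 125 CPM in *Mbd3* KO. The lowest WT library was thus above the highest *Mbd3* KO library by a wide margin, and the log2 fold change was -3.11 ± 0.39 (SE, adjusted p = 2.8e-06, edgeR). *Dcx* (chromosome X, 140290385 to 140367854, minus strand) encodes doublecortin, a microtubule-binding protein of migrating young neurons. Its level was 443, 395 and 108 CPM in WT and 1.31, 21.9 and 24.5 CPM in *Mbd3* KO. Both lines held 1 low library, s03 and s04, and the difference of -4.30 ± 0.85 had the largest error of all members (adjusted p = 0.000283, edgeR).

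*Map2* (chromosome 1, 66221847 to 66489157, plus strand), which encodes the microtubule-associated protein of dendrites, had 725, 644 and 237 CPM in WT and 9.38, 25.8 and 32.5 CPM in *Mbd3* KO. Its log2 fold change was -4.57 ± 0.58 (adjusted p = 3.45e-06, edgeR). Exons of *Map2* overlap with the opposite-strand gene *Gm10558* over 124 bases, and whether the counting used the strand is not given in the sources used here. *Mapt* (chromosome 11, 104092704 to 104193404, plus strand), the gene of the axonal protein tau, was the smallest fall of this group. It had 111, 81.6 and 25.6 CPM in WT and 5.66, 9.38 and 12.9 CPM in *Mbd3* KO, a log2 fold change of -2.97 ± 0.59 (adjusted p = 0.000292, edgeR). The third WT library and the third *Mbd3* KO library differed by only 25.6 against 12.9 CPM, so that the lines were separate but close.

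The stathmins bind tubulin dimers and promote the shrinkage of microtubules in growth cones. *Stmn2* (chromosome 3, 8509527 to 8561604, plus strand) had 196, 166 and 96.7 CPM in WT and 2.23, 8.26 and 10.9 CPM in *Mbd3* KO, and *Stmn3* (chromosome 2, 181041164 to 181049205, minus strand) had 93.3, 72.0 and 69.9 CPM against 1.37, 3.74 and 5.29 CPM. For both genes every WT library was far above every *Mbd3* KO library. The log2 fold changes were -4.42 ± 0.55 for *Stmn2* (adjusted p = 2.81e-06) and -4.49 ± 0.47 for *Stmn3* (adjusted p = 4.8e-07, both edgeR).

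*Elavl2*, *Elavl3* and *Elavl4* encode the neuronal Hu proteins, which bind AU-rich elements and stabilise transcripts. *Elavl4* (chromosome 4, 109876327 to 110024514, minus strand) had the strongest fall of all members, from 152, 150.2 and 59.2 CPM in WT to 0.543, 2.21 and 3.73 CPM in *Mbd3* KO. Its log2 fold change was -5.79 ± 0.64 (adjusted p = 7.8e-07, edgeR), and library s04 held 19 reads of it in all. *Elavl3* (chromosome 9, 21819449 to 21856467, minus strand) had 356, 328 and 134 CPM in WT and 8.58, 15.3 and 19.9 CPM in *Mbd3* KO, a log2 fold change of -4.22 ± 0.50 (adjusted p = 1.78e-06, edgeR). *Elavl2* (chromosome 4, 90917454 to 91066675, minus strand), which is also used outside the nervous system in germ cells, fell less. It had 119, 102 and 65.5 CPM in WT and 12.8, 12.6 and 7.88 CPM in *Mbd3* KO (-3.10 ± 0.36 on the log2 scale, adjusted p = 1.31e-06, edgeR). Unlike the other 9 members, *Elavl2* was highest and not lowest in library s04.

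*Rbfox3* (chromosome 11, 118351074 to 118772911, minus strand) encodes a splicing regulator that appears late in neuronal maturation. It had 30.0, 27.9 and 10.2 CPM in WT and 3.86, 10.5 and 11.2 CPM in *Mbd3* KO, so that 2 of the *Mbd3* KO libraries lay above the lowest WT library. The log2 fold change of -1.41 ± 0.50 was called (adjusted p = 0.021, edgeR), but the call was lost without s01, without s02 and without s04 (log2 fold changes -1.16, -1.23 and -1.07). The other 9 calls held without any single library of the lines compared.

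The promoters found for the members differed in CpG content, and a link between CpG content and the fall was not tested. RefSeq promoters (GRCm38.p6, 250 bases before to 50 bases after the first listed start) were found for 8 members, the exceptions being *Mapt* and *Stmn2*. They held between 3 CpG dinucleotides in *Dcx* and 37 in *Map2*, against a median of 7 over 32851 promoters. The sequence CANNTG, the E-box bound by basic helix-loop-helix factors, occurred on either strand in 4 of 8 (*Elavl2*, *Elavl3*, *Stmn3* and *Rbfox3*), while 72.3% of all promoters held it. Of its forms, CAGCTG was found in *Elavl2* and *Elavl3* (16.3% of all promoters) and CAGATG in *Stmn3* (17.2%). TATAAA occurred in *Dcx* and *Elavl3* (13.6% of all promoters). *Dcx*, *Elavl2* and *Elavl4* have further listed starts, and the 3 of *Elavl4* hold between 1 and 4 E-boxes each. CpG content differs between starts as well, with 23 at the first of *Elavl4* and 5, 6 and 4 at the further ones. The 4 promoters shown are examples with more and with fewer CpG, with and without an E-box, with 26 CpG and no E-box in *Tubb3* (chr8:123411303-123411602, plus strand), 29 CpG and 2 E-boxes in *Elavl3* (chr9:22051974-22052273, minus strand), 6 CpG and 1 E-box in *Stmn3* (chr2:181314451-181314750, minus strand) and 4 CpG and 2 E-boxes in *Rbfox3* (chr11:118760992-118761291, minus strand). Each is written 5′ to 3′ with E-boxes in capitals.
Tubb3: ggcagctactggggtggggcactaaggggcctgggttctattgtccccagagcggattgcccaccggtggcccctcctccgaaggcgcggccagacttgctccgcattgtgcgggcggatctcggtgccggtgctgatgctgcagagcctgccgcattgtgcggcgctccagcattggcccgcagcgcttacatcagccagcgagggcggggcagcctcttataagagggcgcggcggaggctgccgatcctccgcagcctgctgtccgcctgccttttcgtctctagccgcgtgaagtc
Elavl3: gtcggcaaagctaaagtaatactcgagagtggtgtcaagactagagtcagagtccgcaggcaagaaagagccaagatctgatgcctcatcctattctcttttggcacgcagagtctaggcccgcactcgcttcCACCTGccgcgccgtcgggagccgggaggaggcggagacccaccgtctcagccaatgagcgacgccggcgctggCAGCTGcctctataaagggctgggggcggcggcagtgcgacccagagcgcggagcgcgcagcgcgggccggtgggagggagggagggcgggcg
Stmn3: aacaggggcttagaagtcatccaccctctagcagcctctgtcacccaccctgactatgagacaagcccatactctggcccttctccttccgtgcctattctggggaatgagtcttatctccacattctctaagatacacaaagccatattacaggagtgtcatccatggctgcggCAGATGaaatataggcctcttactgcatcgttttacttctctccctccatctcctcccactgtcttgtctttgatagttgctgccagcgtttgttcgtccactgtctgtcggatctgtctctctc
Rbfox3: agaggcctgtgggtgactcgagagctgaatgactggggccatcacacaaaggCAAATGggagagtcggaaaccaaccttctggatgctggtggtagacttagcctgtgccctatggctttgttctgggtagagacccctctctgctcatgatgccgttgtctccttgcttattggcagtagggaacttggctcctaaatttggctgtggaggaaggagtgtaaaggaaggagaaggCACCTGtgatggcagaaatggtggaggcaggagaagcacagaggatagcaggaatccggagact
Only the letters of this window were searched, and a match is not a binding site.

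Re-expression of MBD3a or MBD3dMBD brought all 10 genes back above the *Mbd3* KO level. Each was called higher than in *Mbd3* KO with MBD3a, where 32.4% of all genes were called and 13.5% called higher, and with MBD3dMBD, where the shares were 35.9% and 15%. The median log2 fold change over the members was 4.00 for MBD3a and 4.61 for MBD3dMBD, with non-overlapping libraries for 10 of 10 members in both (67.4% and 69% of all genes). *Tubb3* had 1056, 821 and 776 CPM in MBD3a and 1067, 1485 and 1355 CPM in MBD3dMBD. *Elavl4* had 132, 71.0 and 71.5 CPM in MBD3a and 88.1, 147 and 168 CPM in MBD3dMBD. Both genes thus lay in or near the range of the WT libraries. For *Rbfox3* the call against *Mbd3* KO was lost without s04 in both lines (adjusted p = 0.0944 for MBD3a and 0.0518 for MBD3dMBD, edgeR) and, for MBD3a, without s07.

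Against WT no member was called with MBD3a or MBD3dMBD by edgeR's quasi-likelihood test, none had an unadjusted p under 0.05, and DESeq2 called 0 as well. Over all genes 0% were called with MBD3a (293 genes or 1.77% at an unadjusted p under 0.05 and 0 by DESeq2). With MBD3dMBD 0.0181% were called (1187 genes or 7.16% at an unadjusted p under 0.05 and 23 genes by DESeq2). The line means were 74% to 102% of WT in MBD3a and 111% to 158% in MBD3dMBD. In MBD3dMBD all 10 genes were above WT, between 0.16 ± 0.49 for *Elavl4* and 0.66 ± 0.39 for *Stmn3* on the log2 scale, and in MBD3a they ran from -0.43 ± 0.74 for *Dcx* to 0.03 ± 0.39 for *Stmn3*. For 0 of 10 members were the libraries separate from WT in either line, against 5.18% of all genes with MBD3a and 11.7% with MBD3dMBD. These comparisons share the WT or the *Mbd3* KO libraries and are not independent of each other.

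**Figure D2:**
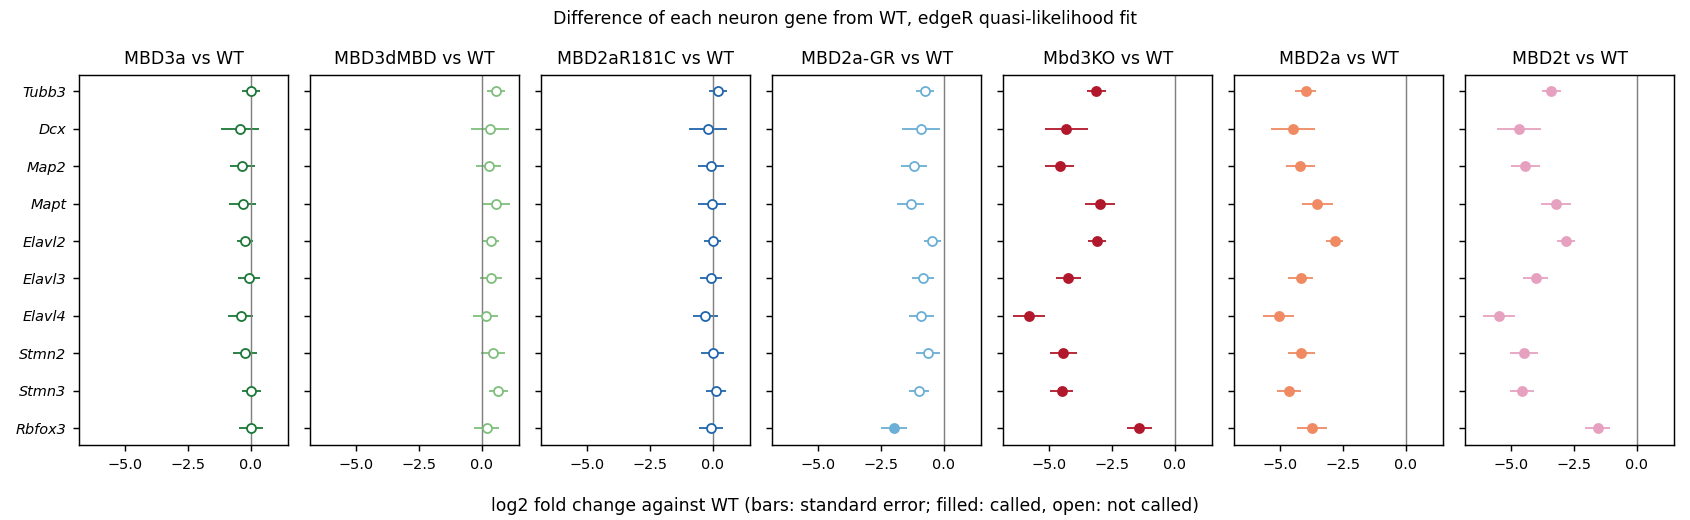
Log2 fold change of each neuron gene against WT for the 7 other lines, with the standard error of edgeR's fit as bars, filled points for called genes and open points for genes not called. All 10 genes are filled in Mbd3 KO, MBD2a and MBD2t, only Rbfox3 is filled in MBD2a-GR, and none in MBD3a, MBD3dMBD and MBD2aR181C.

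In the libraries labelled MBD2a the neuron genes stayed at the *Mbd3* KO level. All 10 were called lower than in WT, where 30.6% of all genes were called and 13.7% called lower, with a median log2 fold change of -4.15 and no overlap between the libraries for 10 of 10 members (56% of all genes). *Tubb3* had 55.5, 85.0 and 25.1 CPM and *Elavl4* had 3.94, 6.28 and 0.816 CPM. The lowest value came from library s15 for both, as it did for 9 of 10 members, and leaving out s15 or any other library kept all 10 calls. Against *Mbd3* KO 1 of 10 members was called (5.25% of all genes, 4.4% called lower). This was *Rbfox3*, with 2.07, 1.77 and 1.35 CPM, below all 3 libraries of the knockout (-2.31 ± 0.59 on the log2 scale, adjusted p = 0.0181, edgeR; libraries of 27.1% of all genes did not overlap). The other 9 lay between -0.87 ± 0.36 for *Tubb3* and 0.73 ± 0.63 for *Elavl4*. The *Rbfox3* call was lost without s05, s06, s13 or s14, with adjusted p between 0.0549 and 0.0773 (edgeR).

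MBD2t libraries were as low. All 10 members were called lower than in WT, where 33.4% of all genes were called and 15.1% called lower, with a median log2 fold change of -4.22 and non-overlapping libraries for 10 of 10 (69.2% of all genes). *Tubb3* had 80.0, 84.8 and 83.9 CPM, *Elavl4* had 2.56, 2.20 and 3.32 CPM, and *Dcx* had 13.1, 10.3 and 13.9 CPM. The repeats of the clone were close together, with highest-to-lowest ratios of at most 1.51 over the members. The *Rbfox3* call was lost without s01 or s22 (adjusted p = 0.0554 and 0.0509, edgeR).

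Against *Mbd3* KO, MBD2t had 0 members called by edgeR's quasi-likelihood test, 0 at an unadjusted p under 0.05 and 0 by DESeq2. Of all genes, edgeR called 0.0241%, 3.44% had an unadjusted p under 0.05, DESeq2 called 3 genes, and 19% had separate libraries. Log2 fold changes of the members ran from -0.36 ± 0.78 for *Dcx* to 0.31 ± 0.63 for *Elavl4*. Against MBD2a 1 of 10 was called (4% of all genes, 3.14% called higher). *Rbfox3* had 6.32, 7.21 and 9.54 CPM in MBD2t, above every MBD2a library, as were the libraries of 35% of all genes in either direction (log2 fold change 2.16 ± 0.59, adjusted p = 0.034, edgeR). That call was lost whichever of the 6 libraries was left out, with adjusted p between 0.0635 and 0.126 (edgeR). The libraries labelled MBD2a are shared by these comparisons.

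MBD2a-GR and MBD2aR181C brought the neuron genes back, MBD2a-GR with lower values. Against *Mbd3* KO all 10 were called higher with MBD2aR181C (31.1% of all genes called, 13% called higher, median log2 fold change of the members 4.13) and 9 of 10 with MBD2a-GR (25.2% called, 9.86% called higher, median 3.38). Libraries were separate from *Mbd3* KO for 10 of 10 members with MBD2aR181C (63.3% of all genes) and for 9 of 10 with MBD2a-GR (50.2%). *Tubb3* had 1289, 646 and 1089 CPM in MBD2aR181C and 790.4, 443 and 345 CPM in MBD2a-GR. *Map2* had 728, 332 and 472 CPM in MBD2aR181C and 416, 225 and 74.7 CPM in MBD2a-GR. In both genes the first MBD2a-GR library, s16, lay within the range of the MBD2aR181C libraries and the other 2 below it. *Mapt*, with 49.5, 23.5 and 14.8 CPM in MBD2a-GR, was called at 1.65 ± 0.57 against *Mbd3* KO (adjusted p = 0.0241, edgeR), and this call was lost without s04, s05 or s16. With MBD2aR181C the *Rbfox3* call was lost without s04 or s19 (adjusted p = 0.12 and 0.168, edgeR).

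The direct comparisons with MBD2a pointed the same way. All 10 members were called lower in MBD2a than in MBD2a-GR (18.6% of all genes called, 8.02% called lower), the members' median being -3.29 on the log2 scale. They were also all called lower in MBD2a than in MBD2aR181C (27.3% called, 12.2% called lower), where the median was -4.12. *Stmn3* had 3.31, 4.83 and 1.32 CPM in MBD2a, 56.6, 31.1 and 30.8 CPM in MBD2a-GR and 105, 46.7 and 105 CPM in MBD2aR181C. Its libraries were separate between MBD2a and either line, as they were for all other members (40.7% and 56.7% of all genes). *Rbfox3* was no longer called between MBD2a and MBD2a-GR when s13, s14, s15 or s16 was left out, nor *Mapt* when s16 was left out.

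Against WT, MBD2aR181C had 0 members called by edgeR's quasi-likelihood test, 0 at an unadjusted p under 0.05 and 0 by DESeq2. Of all genes, edgeR called 0.0181%, 3.95% had an unadjusted p under 0.05, and DESeq2 called 15 genes. Line means of the members in MBD2aR181C were 81.6% to 116% of WT, with log2 fold changes from -0.29 ± 0.49 for *Elavl4* to 0.21 ± 0.36 for *Tubb3*. Libraries overlapped for all 10 members (6.56% of all genes did not). In MBD2a-GR all 10 genes were below WT, at 25.7% to 72.5% of the WT mean with a median of 53.5%, and 1 of 10 was called (5.16% of all genes, 2.47% called lower). The called gene was *Rbfox3* at -1.97 ± 0.52 (adjusted p = 0.0283, edgeR), with 11.2, 4.20 and 2.10 CPM against 30.0, 27.9 and 10.2 CPM in WT. Its highest MBD2a-GR library overlapped with the lowest WT library, and the call was lost without s01, s02, s17 or s18. It was also lost when the MBD2t libraries were left out of the fit (adjusted p = 0.0538) and in a fit of WT and MBD2a-GR alone (adjusted p = 0.362, both edgeR). *Stmn3* alone had separate libraries (18.8% of all genes), at -0.99 ± 0.40 (adjusted p = 0.119, edgeR). At an unadjusted p under 0.05 were *Map2*, *Mapt*, *Stmn3* and *Rbfox3*, 4 of 10 members beside 26.6% of all genes.

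This comparison turned on single libraries. Without s16, the MBD2a-GR library that was highest for 10 of 10 members, 5 genes were called lower than in WT, namely *Tubb3*, *Map2*, *Mapt*, *Stmn3* and *Rbfox3*, while the share of all genes called lower went from 2.47% to 5.92%. Without s03, the WT library that was lowest for 10 of 10 members, *Mapt* and *Rbfox3* were called (3.57% of all genes called lower). Between MBD2a-GR and MBD2aR181C, 0 members were called by edgeR (2.35% of all genes), while DESeq2 called 1, *Rbfox3* (4.53% of all genes), and 5 had an unadjusted p under 0.05 (*Tubb3*, *Map2*, *Mapt*, *Stmn3* and *Rbfox3*, beside 19.1% of all genes). All 10 were lower in MBD2a-GR, between -0.46 ± 0.33 for *Elavl2* and -1.91 ± 0.52 for *Rbfox3*, whose libraries alone were separate (12.1% of all genes). The same 5 genes were called without s16 (8.27% of all genes called), and *Stmn3* and *Rbfox3* were called without s20 (4.65%).

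*Rbfox3* was ordered differently across the lines from the other members. Its mean was 37.5% of WT in *Mbd3* KO, 33.9% in MBD2t, 25.7% in MBD2a-GR and 7.62% in MBD2a. It thus was the only member whose mean was lower in MBD2a-GR than in *Mbd3* KO, with a log2 fold change of -0.56 ± 0.52 that was not called (adjusted p = 0.399, edgeR). Without s16 that difference became -1.49 and was called (adjusted p = 0.0446, edgeR, 14% of all genes called lower). The next member, *Mapt*, had at most 12.9 CPM in *Mbd3* KO and at least 14.8 CPM in every MBD2a-GR library. Over the 24 libraries the Pearson correlation of *Rbfox3* with each of the other members on the log2 CPM scale was 0.696 to 0.848, whereas the median over all 45 pairs was 0.965. Over the libraries of WT, MBD3a, MBD3dMBD, MBD2a-GR and MBD2aR181C alone it was 0.807 to 0.947 with a median of 0.878, near that of *Elavl4* (0.875) and above that of *Stmn3* (0.844). These points share lines and depth, and the values are descriptive. No test of the difference between *Rbfox3* and the other members was made.

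**Figure D3:**
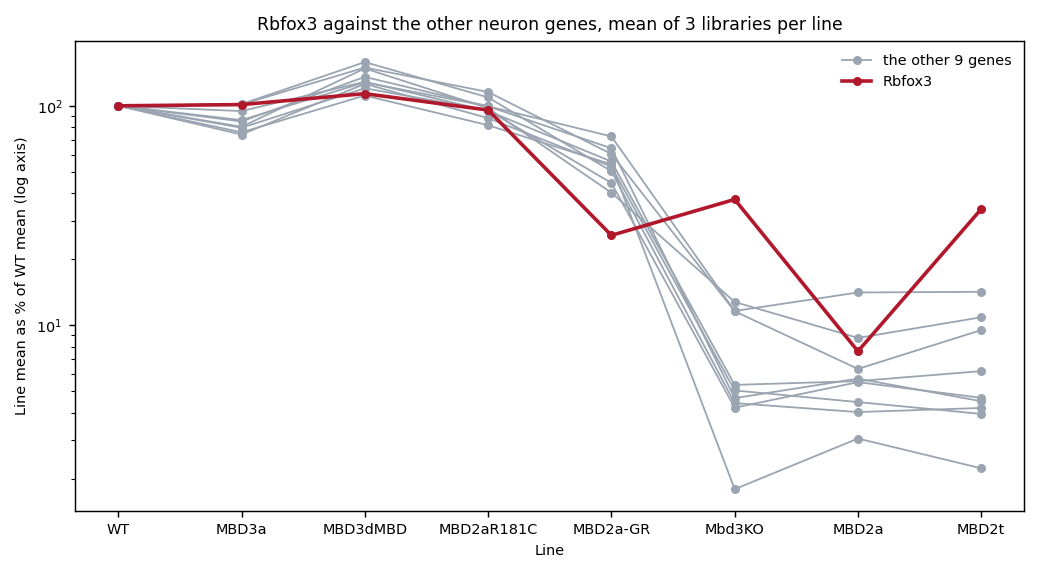
Mean of 3 libraries per line as percent of the WT mean (log axis) for Rbfox3 in red and for the other 9 genes in grey, with lines joining the values of a gene. Rbfox3 lies lowest of all in MBD2a-GR at 25.7% and highest of all in Mbd3 KO at 37.5%, and falls to 7.62% in MBD2a.

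In 5 of the 8 lines 1 library was lowest or highest for 10 of 10 members. Library s03 was lowest for 10 of 10 members in WT, s10 in MBD3dMBD, s18 in MBD2a-GR and s20 in MBD2aR181C. Library s07 was highest for 10 of 10 in MBD3a, and s01, s16 and s19 in WT, MBD2a-GR and MBD2aR181C. In the other 3 lines the order was less uniform, with *Elavl2* apart from the rest in *Mbd3* KO, *Mapt* apart in MBD2a, and s22 and s23 lowest for 3 and 7 members in MBD2t. Over the libraries of these 3 lines the Pearson correlation of log2 CPM between members ran from -0.594 to 0.975 (median of 45 pairs 0.454). Summed over the 10 genes, levels were 3387, 2833 and 1395 CPM in WT and 2170, 1222 and 779.9 CPM in MBD2a-GR, so the lowest WT library lay among the MBD2a-GR libraries. In *Mbd3* KO the sums were 129, 204 and 254 CPM and in MBD2a 157, 221 and 75.9 CPM. The ratio of the highest to the lowest library of a line reached 4.35 among the WT members and 18.6 in *Mbd3* KO, the latter for *Dcx*. The sources of these differences, such as clone, differentiation of the same line or library preparation, cannot be told apart here.

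Markers of other cell types moved with these values. In *Mbd3* KO against WT all 8 pluripotency markers, all 7 trophoblast markers and none of the 6 cell cycle genes were called higher, and all 11 neural progenitor markers of the table were called lower, from -7.12 to -1.03 on the log2 scale. Over all genes, 19.6% were called higher and 14.2% lower in this comparison. Of 7 primitive endoderm markers 1 was called higher, of 5 mesenchyme markers 1 higher and 1 lower, and of 5 glial markers tested 2 higher and 1 lower, with S100b at or under 3 counts in every line. Their summed level was 2517 to 2908 CPM in WT and 337 to 400 CPM in *Mbd3* KO for the progenitor markers, 24.2 to 175 CPM and 327 to 1022 CPM for the pluripotency markers, and 146 to 302 CPM and 1672 to 2234 CPM for the trophoblast markers. No marker of these 3 lists was at or under 3 counts in any line. The libraries with low neuron genes were also the ones with high pluripotency sums within WT (s03, 175 CPM), *Mbd3* KO (s04, 1022 CPM), MBD2a (s15, 705 CPM), MBD2a-GR (s18, 376 CPM) and MBD2aR181C (s20, 323 CPM). In MBD2a against WT 10 of 11 progenitor markers were called lower, and 7 of 8 pluripotency, 5 of 7 trophoblast and 4 of 7 primitive endoderm markers higher (16.9% of all genes called higher, 13.7% lower). In MBD2t against WT the counts were 10 of 11 lower, 8 of 8 and 7 of 7 higher, and 1 of 7 primitive endoderm markers in each direction (18.2% of all genes called higher, 15.1% lower). The mesenchyme markers had 1 higher and 2 lower of 5 in MBD2a and 1 each in MBD2t. In MBD2a-GR against WT 6 of 7 primitive endoderm markers and 1 of 8 pluripotency markers were called higher, and 1 of 11 progenitor and 3 of 5 mesenchyme markers lower (2.69% of all genes called higher, 2.47% lower). Summed levels of the mesenchyme markers were 18.5 to 55.0 CPM in MBD2a-GR and 70.1 to 216 CPM in WT. Library s18 held 3352 CPM of the 7 primitive endoderm markers, against 380.0 and 282 CPM in the other MBD2a-GR libraries. The part of these cells in the values of the neuron genes was not tested.

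**Figure D4:**
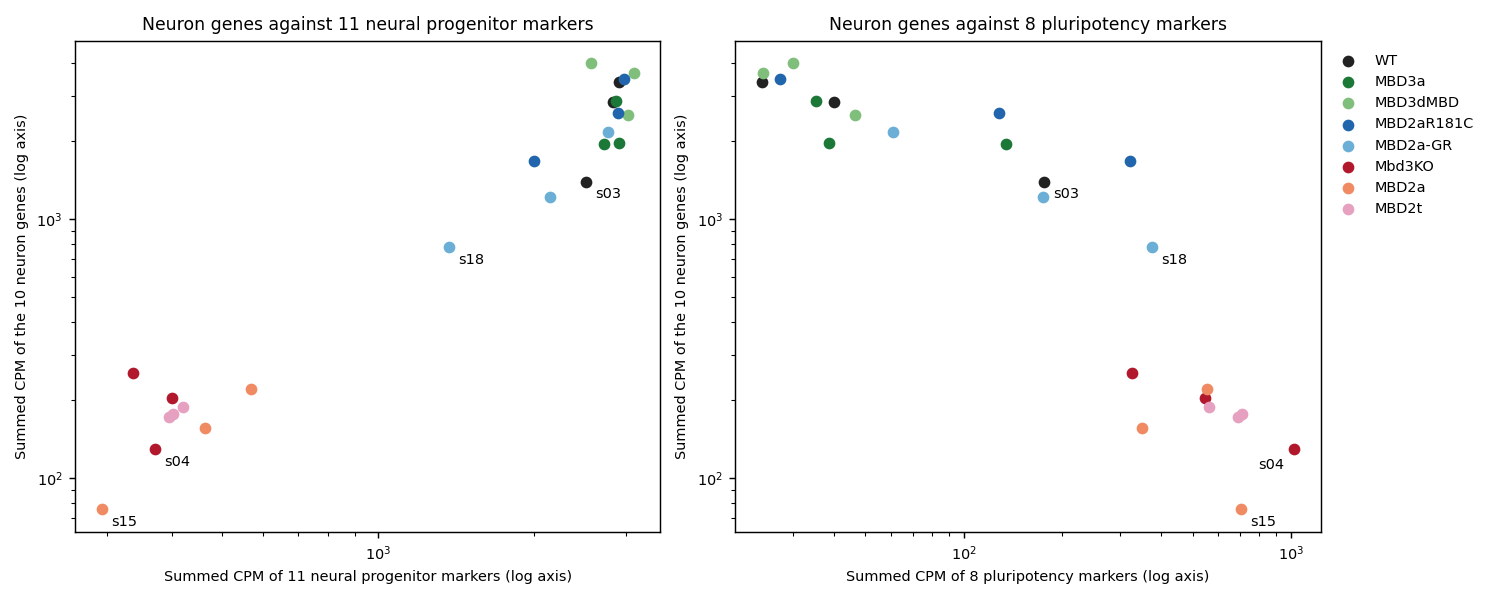
Summed CPM of the 10 neuron genes (log axis) against the summed CPM of 11 neural progenitor markers (left) and 8 pluripotency markers (right, both log axes), 1 point per library and coloured by line. The 9 libraries of Mbd3 KO, MBD2a and MBD2t hold 75.9 to 254 CPM of the neuron genes and the other 15 hold 779.9 to 4015 CPM. The labelled libraries s03, s04, s15 and s18 stand low in their lines, as do s10 of MBD3dMBD and s20 of MBD2aR181C, which are not labelled.

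The sum of the neuron genes was also set against that of the progenitor markers. It amounted to 117%, 100% and 55.4% of the progenitor sum in WT and to 34.9%, 50.9% and 75.3% in *Mbd3* KO, which overlapped with WT. In MBD2a it was 25.9% to 38.9% and in MBD2t 43.6% to 44.9%, below every WT library. MBD2a-GR had 56.9% to 78.2% and MBD2aR181C 84% to 118%. The progenitor markers had a median log2 fold change of -4.08 in *Mbd3* KO against WT, beside -4.26 for the neuron genes.

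In *Mbd3* KO, relatives listed as broadly expressed rose or fell less than every member but *Rbfox3*. *Elavl1*, the ubiquitous member of the Elavl family, had 169 ± 9.22 CPM in WT and 143 ± 3.60 CPM in *Mbd3* KO (SD, n = 3), a log2 fold change of -0.24 that passed the p threshold (adjusted p = 0.0062, edgeR) but not the size threshold. As a share of the 4 family members per kb, *Elavl2* to *Elavl4* together made up 65.4% to 80.9% in WT and 14.7% to 20.9% in *Mbd3* KO. The ranges were 11.3% to 28.5% in MBD2a and 19.6% to 21.8% in MBD2t, so that in these 3 lines *Elavl1* made up most of the family. They were 54.6% to 72.6% in MBD2a-GR and 66.3% to 78.7% in MBD2aR181C, where the neuronal forms kept the larger part.

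In the beta-tubulins *Tubb3* made up 16.6% ± 2.74 of the family's CPM per kb in WT and 6.13% ± 1.35 in *Mbd3* KO (SD, n = 3). *Tubb2b*, which is high in young neurons and progenitors, went from 29.4% to 8.81%, while *Tubb4b*, a broadly expressed form, went from 5.45% to 20.3% and *Tubb6* from 0.924% to 8.27%. *Tubb6* rose by 1.59 ± 0.18 on the log2 scale (adjusted p = 9.67e-07, edgeR), and *Tubb5*, the form with the highest mean level per kb in WT, fell by 1.05 ± 0.12 (adjusted p = 1.77e-06, edgeR). Beta-tubulins share long stretches of sequence, so these shares are uncertain where the counting could split reads between them. *Stmn1*, the stathmin of dividing cells, was lower as well (-1.87 ± 0.19, adjusted p = 2.85e-07, edgeR), yet its share among the stathmins rose from 66.0% to 91.6%, since *Stmn2* and *Stmn3* fell further. Of the 8 genes listed as broadly expressed relatives 2 were called higher and 2 lower in *Mbd3* KO (19.6% and 14.2% of all genes). The further one called higher was *Dclk3* at 1.95 ± 0.64 (adjusted p = 0.0132, edgeR), and how broadly it is expressed was not examined.

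**Figure D5:**
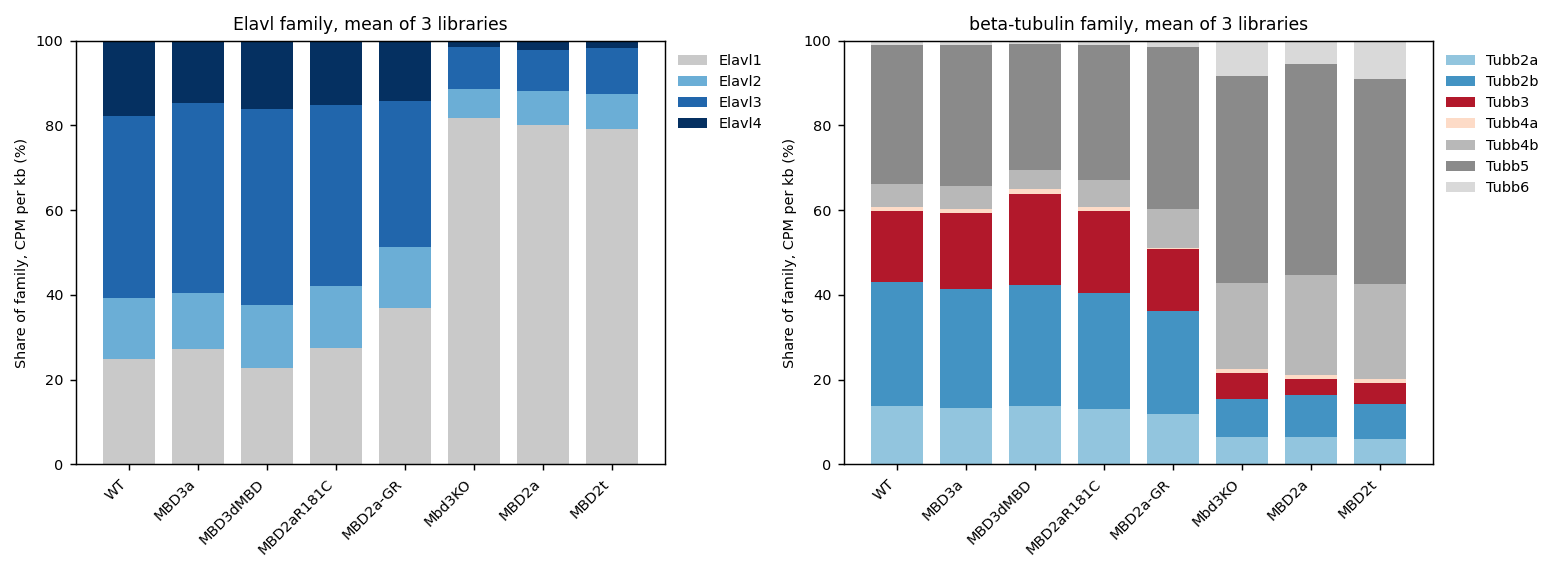
Share of each gene in the summed CPM per kb of exon of the Elavl family (left) and the beta-tubulin family (right), as the mean of 3 libraries per line. Elavl1 rises from 24.8% in WT to 81.7% in Mbd3 KO as Elavl2, Elavl3 and Elavl4 shrink, and Tubb3 goes from 16.6% to 6.13%.

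Other neuron genes fell with the members in *Mbd3* KO. Of 25 further genes of the neuronal cytoskeleton 23 were called lower and none higher, their median being -3.20 on the log2 scale, and of 11 further neuronal RNA-binding genes all 11 were called lower (median -3.40). Over all genes, 14.2% were called lower in this comparison. *Tagln3* and *Dpysl4*, a collapsin response mediator, fell most in the first list (-5.43 ± 0.51 and -5.12 ± 0.57), and *Celf3* and *Srrm4*, a splicing activator of neural microexons, in the second (-5.14 ± 0.70 and -4.47 ± 0.56). The genes that moved least were *Nefh* and *Prph*, neurofilament genes of mature and peripheral neurons, at 0.46 ± 0.26 and 0.56 ± 0.32, neither called. In the second list they were *Khdrbs3* (-1.12 ± 0.17) and *Celf5* (-2.32 ± 0.41), both called. Adjusted p was 1.47e-07 for *Tagln3*, 9.67e-07 for *Dpysl4*, 7.11e-06 for *Celf3*, 2.93e-06 for *Srrm4*, 1.51e-05 for *Khdrbs3* and 9.46e-05 for *Celf5* (edgeR).

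Genes of synapses and secretory vesicles were called lower in 15 of 20 cases (median -2.60), led by the granin *Scg3* (-5.78 ± 0.58) and *Nsg2* (-5.20 ± 0.61). *Chga*, another granin, at 0.45 ± 0.34 was not called. Among 16 genes of neuron subtypes 14 were tested, of which 9 were called lower and 1 higher (14.2% and 19.6% of all genes). *Slc32a1*, the vesicular transporter of GABA, fell by 5.75 ± 0.95 on the log2 scale (adjusted p = 4.89e-05, edgeR). *Slc17a7*, a vesicular glutamate transporter, was the gene called higher (2.10 ± 0.33, adjusted p = 2.99e-05, edgeR), though at 2.09 CPM in WT and 8.98 CPM in *Mbd3* KO. *Slc17a6*, a related transporter, was among those called lower but stood at 0 in all *Mbd3* KO libraries and at a mean of 0.153 CPM in WT, and *Lhx2* at 0.20 ± 0.49 was not called.

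The same lists in the other lines ran beside the members. With MBD2a 23 of 25 cytoskeleton genes, 11 of 11 RNA-binding genes and 17 of 20 synapse genes were called lower than in WT, and with MBD2t 23, 11 and 15. Over all genes, 13.7% were called lower with MBD2a and 15.1% with MBD2t. Of the cytoskeleton genes 2, *Nefh* and *Prph*, were called higher with MBD2a (log2 fold changes 1.80 and 1.02, adjusted p = 1.34e-05 and 0.0113, edgeR). With MBD2a-GR 1, 1 and 2 were called lower, beside 2.47% of all genes, and *Nefh* and *Prph* were again called higher (1.52 and 1.33, adjusted p = 0.00236 and 0.0202, edgeR), beside 2.69%. The genes called lower, named after their values were seen, were *Tubb4a*, *Rbfox1*, *Gng3* and *Thy1*. With MBD2aR181C, MBD3a and MBD3dMBD 0 were called in either direction in each of these 3 lists.

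Genes outside the set with the most similar pattern were found by the Pearson correlation of log2 CPM with the mean of the members' standardised log2 CPM over 24 libraries, among the 12804 genes whose log2 CPM averaged 1 or more. These were *Crmp1* (r = 0.998), *Myt1* (0.996), *Add2*, *Actl6b* and *Ina* (0.995 each). *Crmp1* is a collapsin response mediator and *Ina* a neuronal intermediate filament, both of the cytoskeleton list. *Myt1* is a zinc finger factor of neurogenesis, *Add2* an adducin, and *Actl6b* a subunit of the neuronal BAF complex. Mean levels of *Crmp1* were 409 CPM in WT, 19.5 CPM in *Mbd3* KO, 19.8 CPM in MBD2a and 415 CPM in MBD2aR181C. Taken singly, the nearest gene outside the set was *Syp* for *Tubb3* (0.993), *Lhx1* for *Dcx* (0.995), *Mllt3* for *Map2* (0.996), *Thra* for *Mapt* (0.985) and *Zfp536* for *Elavl2* (0.991). It was *Ina* for *Elavl3* (0.997), *Nhlh2* for *Elavl4* (0.996), *Scg3* for *Stmn2* (0.994) and *Hes6* for *Stmn3* (0.994). For *Rbfox3* it was *Acap3*, at 0.958 the lowest of these values. All these values rest mainly on the gap between 2 sets of lines and are given as descriptions.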

How the data were processed

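RNA was measured in 24 NPC libraries. The 6 ChIP-seq samples were not analysed here. Per the submitters' processing notes and the study's methods, the authors trimmed reads (Trim Galore 0.6.6), aligned them with STAR to mm9 (NCBIM37) and summed them over genes with qCount of QuasR. What was deposited is the table of raw counts. Columns carry group names and no replicate number, and the libraries are called s01 to s24 as in the deposited table.

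A low-count filter (filterByExpr, line as group) left 16582 of 25400 genes. One quasi-likelihood fit of all libraries in edgeR 4.0.16 (R 4.3.3), with TMM factors, gave every F test. The spread it shares between lines includes MBD2t, whose repeats of 1 clone leave out differences between clones. CPM used TMM-scaled sizes, and log2 CPM a prior count of 1. Genes with adjusted p under 0.05 and absolute log2 fold change above 1 were called. SE was taken as the size of the log2 fold change over the root of F. Tested on simulated data for *Mbd3* KO against WT (16379 genes, 200 changed), the fit recovered 175, of which 122 were among the 134 changed 4-fold or more, with 9 false calls. Only *Mbd3* KO was changed in the simulation, whereas 33.8% of all genes were called in the data. These counts therefore do not show recovery or false calls under so broad a change. Exon lengths and coordinates come from GENCODE on NCBIM37. An exact permutation test on 3 against 3 libraries cannot go below 0.1. Replicate pairs differed by more than sampling noise (chi-square per gene 3.42 to 303). Named genes are the members, *Mbd2* and *Mbd3*, and the 2 lowest and 2 highest of each related list in *Mbd3* KO against WT, with the 5 nearest genes of the members' mean and the nearest of each member. One gene that this rule names is not reported here. Further relatives named for their family shares were picked with values in view. The members and lists were chosen with earlier results of these data known. Alternatives tried were RLE scaling, DESeq2 1.42.0, no low-count filter, no fold threshold, fits of the 2 lines compared or without MBD2t, leaving out each library, and the legacy quasi-likelihood test (chosen after seeing the data).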

Additional observations from a re-analysis of the deposited data

How the results depend on the processing

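The 17 counts of called members were recomputed under each alternative. With MBD2a-GR against WT the count of 1 became 0 in the fit without MBD2t and in the fit of only the 2 lines compared, with MBD2a against *Mbd3* KO it became 0 in the fit of only the 2 lines, and with MBD2a-GR against MBD2aR181C the count of 0 became 1 with DESeq2. Every other count was within 1.5 times its value under RLE scaling, DESeq2, no low-count filter, the adjusted p alone, both smaller fits and the legacy test. The share of all genes called in MBD2a-GR against WT was 5.16%, but 2.87% without MBD2t and 0.0848% with only the 2 lines. For MBD2a-GR against MBD2aR181C these shares were 2.35%, 0.953% and 0%. When libraries were left out in turn, counts ran from 9 to 10 for *Mbd3* KO and MBD2t against WT and for MBD3a, MBD3dMBD and MBD2aR181C against *Mbd3* KO, from 0 to 5 for MBD2a-GR against WT and against MBD2aR181C, from 0 to 1 for MBD2a against *Mbd3* KO, 8 to 9 for MBD2a-GR against *Mbd3* KO, 8 to 10 for MBD2a against MBD2a-GR and 0 to 0 for MBD2t against MBD2a, where 1 was called with all libraries. They stayed at 10 for MBD2a against WT and MBD2aR181C, and at 0 for the other 4 comparisons. A line left with 2 libraries borrows its spread from the others. Of 1020 fold changes recomputed so, 77 changed sign, of which 0 were called in either fit, 32 lost their call (4 of them not *Rbfox3*) and 13 gained one. In the fits of only the 2 lines, calls were lost for *Rbfox3* in *Mbd3* KO against WT (adjusted p = 0.061, edgeR) and MBD2a against MBD2a-GR (0.109), and for *Dcx* (0.0568) and *Mapt* (0.0587) in MBD2a-GR against *Mbd3* KO. The fold change of *Rbfox3* in MBD3a against WT, 0.02, was -0.00 with DESeq2. The causes were not tested. No paired analysis was possible because the columns of the count table carry no replicate numbers. The lowest count of a member in a library was 19 reads, and the effect of depth was not tested. All standard errors rest on 3 libraries per line.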
